A study of Mus musculus with 30 samples.

Results

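The genes described here encode protein factors that start and extend translation on cytosolic ribosomes, and kinases, methyltransferases and other proteins that share their names. They were picked by name: every protein-coding autosomal gene in GENCODE release M21 whose symbol begins with Eif and a number from 1 to 6, or with Eef1 or Eef2. This gave 65 genes of the 55335 in the count table, of which 20782 are protein-coding and autosomal. A further 14 genes carry such a symbol but are pseudogenes, a non-coding RNA or genes on a sex chromosome and were left out. Of the 65 members, 62 had enough counts to be tested. The 3 others were Eif4ebp3 with 87 counts over all libraries, Eef1akmt3 with 83 and Eif4e1b with 0.

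Translation begins when eIF2 brings the initiator tRNA to the small ribosomal subunit and eIF4E, eIF4G and eIF4A recruit that subunit to the capped end of an mRNA. eIF3 holds the assembly together, eIF1, eIF1A and eIF5 govern the choice of start codon, and eIF5B joins the large subunit. eEF1 then delivers each aminoacyl-tRNA and eEF2 moves the ribosome along. Phosphorylation of eIF2 by its kinases, of the eIF4E-binding proteins by mTORC1, and of eEF2 by its kinase are the classical switches by which neurons slow or speed protein synthesis.

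The RNA came from polyribosomes precipitated through an HA tag from the nucleus accumbens of female mice. D1-Cre-RT mice carry the tag (RiboTag, RT) in medium spiny neurons that express the D1 dopamine receptor. A2A-Cre-RT mice carry it in the class marked by the adenosine A2A receptor, called D2 in the sample titles and here. Stressed mice of both genotypes went through chronic witness defeat stress (CWDS) and were sorted by social interaction into Resilient and Susceptible, and Control mice of both genotypes carry the same tag and Cre. Tissue was collected 24 h past the interaction test. Each of the 30 libraries pooled 4 mice, with 5 libraries in each of the 6 groups, and the labels give no age. Because mice were pooled by similar interaction scores, the spread between libraries is a spread between pools.

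The libraries held 28996168 to 65882152 gene counts, and members made up 1.12% to 1.32% of them in 29 libraries. In D1 Susceptible replicate 1 they made up 0.390%, where the noncoding gene Gm42418 held 54.9% of the counts. With Gm42418 left out the share there was 0.865%, still below the 1.17% to 1.33% of the other 29 libraries. D2 Susceptible replicates 1 and 2 had a count in 15822 and 16525 genes, against 19440 to 22375 in the other 28 libraries. The summed CPM of 5 D1 class markers was 1554 to 2351 in D1 libraries and 242 to 1673 in D2 libraries, the highest in D2 Resilient replicate 5. The summed CPM of 4 D2 class markers was 1087 to 2707 in D1 and 4766 to 12628 in D2 libraries. D2 Control replicate 5 came next to D2 Resilient replicate 5, with D1 class markers at 1107 and D2 class markers at 7173 CPM. It was left out only singly. The counts of called members are given with and without these libraries (D1 Susceptible replicate 1, D2 Resilient replicate 5 and D2 Susceptible replicates 1 and 2).

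Levels between genes were compared as CPM (counts scaled to a common library size, with TMM factors) per kb of exon, averaged over the 30 libraries. The most abundant members were the paralogs that carry aminoacyl-tRNA to the ribosome, Eef1a1 (chr9:78478449-78489151, GRCm38) at 691 and Eef1a2 (chr2:181147653-181157014), the form typical of neurons and muscle, at 682 CPM per kb. Eif1, which keeps the scanning complex in its open state, followed at 258, the translocase Eef2 at 237 and the helicase Eif4a2 at 229 CPM per kb. These 5 genes held 57.3% of the summed CPM per kb of all members. Next came Eif5a, which helps ribosomes through proline stretches, at 125, and Eef1g, a subunit of the eEF1B exchange factor, at 104 CPM per kb.

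Within eIF3, a complex of many subunits, levels spread from 54.4 CPM per kb for Eif3h to 4.42 for Eif3j2. The 2 genes of subunit j, Eif3j1 at 9.82 and Eif3j2, are near copies, and reads that fit both are uncertain. The exchange factor eIF2B ranged from 26.6 CPM per kb for its catalytic subunit Eif2b5 to 2.84 for Eif2b3. Its substrate eIF2 was represented by the beta subunit Eif2s2 at 29.6 and the alpha subunit Eif2s1, the one phosphorylated under stress, at 9.80 CPM per kb. Among the kinases of eIF2, Eif2ak1 (HRI) stood at 13.2, Eif2ak3 (PERK) at 3.17, Eif2ak4 (GCN2) at 1.60 and Eif2ak2 (PKR) at 0.385 CPM per kb. Cap-binding Eif4e stood at 22.8 CPM per kb, and the scaffolds Eif4g2 at 43.5 and Eif4g3 at 25.3. Of the proteins that hold Eif4e back, Eif4ebp2 stood at 7.46, the eIF4E transporter Eif4enif1 at 6.52 and Eif4ebp1 at 0.189 CPM per kb. Eef2k, the kinase of eEF2, stood at 2.77 and the methyltransferase Eef1akmt1 at 30.7 CPM per kb.

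**Figure D1:**
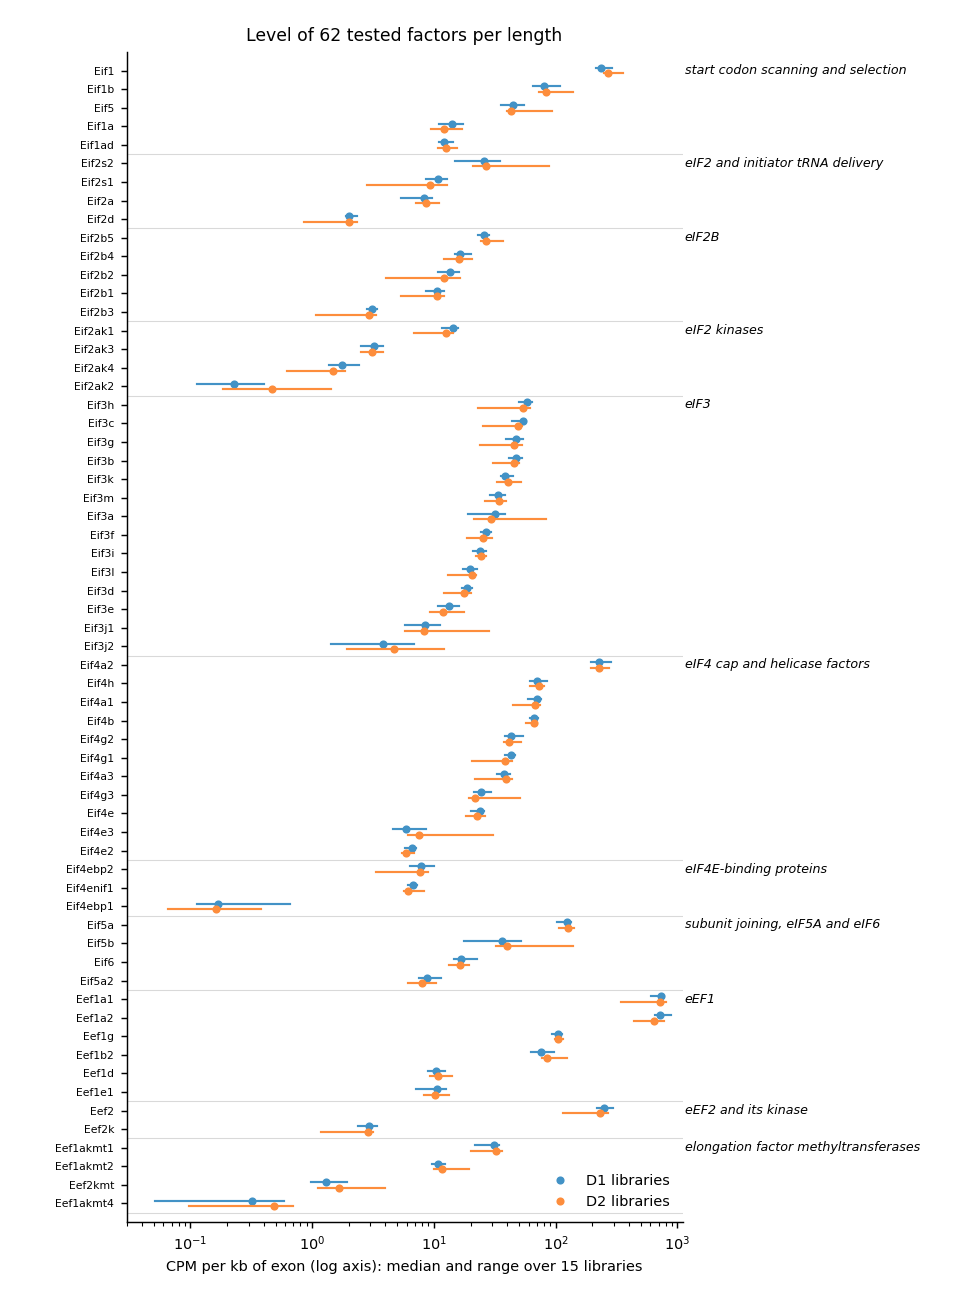
CPM per kb of exon on a log axis for the 62 tested members by role, with D1 libraries in blue and D2 libraries in orange. Points are medians and lines the range over 15 libraries of a class, leaving out libraries at 0 (Eif4ebp1 and Eef1akmt4 in D2 Susceptible replicates 1 and 2); Eef1a1 and Eef1a2 lead and Eif4ebp1 is lowest.

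Ratios between related members were taken per kb within each library. Eef1a1 to Eef1a2 ran from 0.773 to 1.26, so neither form was in excess throughout. In all 30 libraries Eif4a2 exceeded Eif4a1 by 2.82 to 4.87 times, Eif1 exceeded Eif1b by 2.57 to 3.64 times, and Eif5a exceeded Eif5a2 by 10.7 to 19.8 times. Eif4e exceeded Eif4ebp2 by 2.16 to 7.31 times. The ratio of Eif4g3 to Eif4g1 was 0.460 to 0.788 in the other 28 libraries and 2.49 and 1.69 in D2 Susceptible replicates 1 and 2. Eef1a1, Eif1 and Eif4a1 have processed copies elsewhere in the genome, so their levels are uncertain to the extent that reads fitting several places were set aside.

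**Figure D2:**
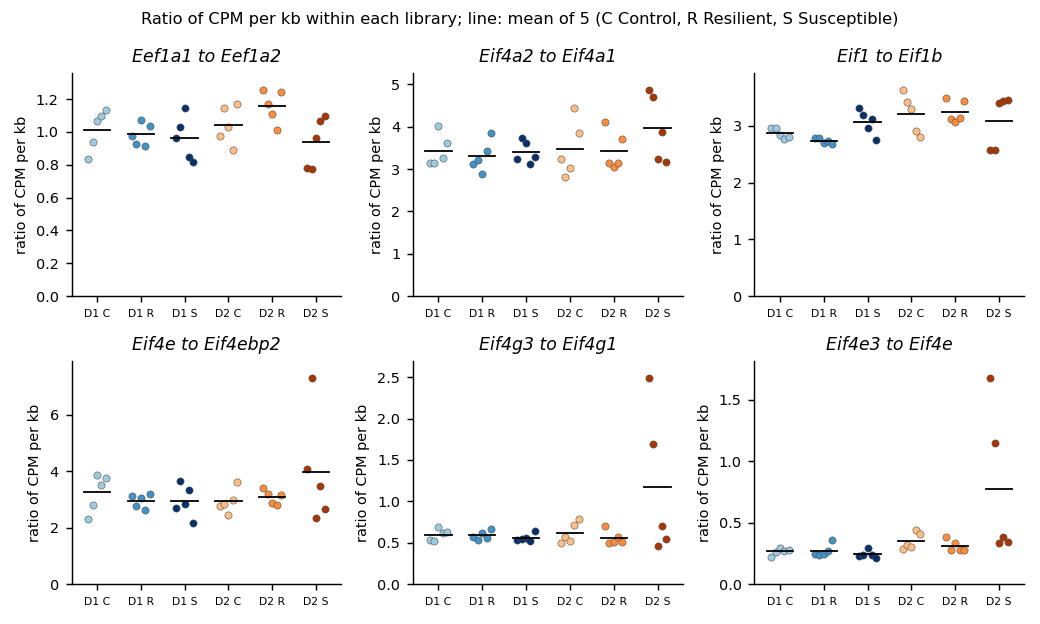
Ratios of CPM per kb between related members in each of the 30 libraries, by group, with the mean of 5 libraries as a line. Eef1a1 and Eef1a2 stay near equality, and the ratios of Eif4g3 to Eif4g1 and of Eif4e3 to Eif4e are highest in D2 Susceptible replicates 1 and 2.

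The comparison of D1 with D2 libraries asked whether the machinery differs between the neuron classes. Over the 3 conditions, 16 of 62 members differed (edgeR quasi-likelihood test, Benjamini-Hochberg adjusted p under 0.05 over 19368 genes), 9 higher in D1 and 7 lower. That is 25.8% of the tested members, and 29.3% of all genes tested were called, 13.8% higher and 15.5% lower. The median log2 difference, D1 minus D2, was 0.04 over the members and 0.00 over all genes. Differences were small, with 12 of the 16 under 0.35 in size on the log2 scale. In these bulk samples fewer tagged cells of a type and less RNA per cell cannot be told apart.

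Both elongation steps held members that were higher in D1. Eef1a2 had 1371, 1500 and 1854 CPM (lowest, median and highest of 15) in D1 libraries and 910, 1350 and 1610 in D2. The classes overlapped, and all 15 D1 libraries lay above the D2 mean. The log2 difference was 0.23 ± 0.07 (SE), with an edgeR adjusted p of 0.00765. Eef2 (chr10:81176631-81182498) had 727, 826 and 989 CPM in D1 and 381, 772 and 889 in D2, a log2 difference of 0.25 ± 0.09 (edgeR adjusted p = 0.0293). Eef1a1, by contrast, was not called at 0.14 ± 0.08 (edgeR adjusted p = 0.214). Eef1b2, the exchange factor that reloads eEF1A with GTP, went the other way, with 160, 191 and 243 CPM in D1 and 196, 214 and 314 in D2. Its log2 difference was -0.27 ± 0.07 (edgeR adjusted p = 0.00256). The genes of 2 methyltransferases that modify elongation factors were also lower in D1, Eef2kmt by a log2 difference of -0.57 ± 0.15 and Eef1akmt2 of -0.22 ± 0.08.

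Start codon factors split in direction. Eif1 (chr11:100319885-100322096) had 451, 490 and 614 CPM in D1 and 518, 565 and 752 in D2. In Control libraries Eif1 had 465, 492, 511, 488 and 514 CPM in D1 and 562, 571, 572, 626 and 565 in D2. With all libraries in the model it was not called in Control. Over the 3 conditions the log2 difference was -0.25 ± 0.05, the smallest p of any member (edgeR adjusted p = 0.00024). Eif1a, its partner on the small subunit, was higher in D1, at 46.3, 59.1 and 72.3 CPM against 39.8, 50.1 and 71.1. Its log2 difference was 0.20 ± 0.07 (edgeR adjusted p = 0.0215). Its X-linked counterpart Eif1ax, outside the 65, was also higher in D1, by 0.21 ± 0.05 (edgeR adjusted p = 0.00153).

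Of the 4 eIF2 kinases, 3 differed between the classes. Eif2ak2 (chr17:78852564-78882573), which senses double-stranded RNA, had 0.581, 1.16 and 2.06 CPM in D1 and 0.945, 2.41 and 7.32 in D2. This was the largest class difference in size among the 16, -1.04 ± 0.24 on the log2 scale (edgeR adjusted p = 0.00108), at the lowest mean CPM of any gene named Eif2 or Eif3. Heme-regulated Eif2ak1 had 65.8, 81.2 and 90.2 CPM in D1 and 39.1, 70.7 and 80.8 in D2, a log2 difference of 0.25 ± 0.08 (edgeR adjusted p = 0.0126). Amino-acid-sensing Eif2ak4 differed by 0.31 ± 0.11 (edgeR adjusted p = 0.0261). Eif2ak3, which answers to unfolded proteins in the endoplasmic reticulum, had a difference of 0.05 ± 0.06 and was not called. None of the 4 eIF2 and tRNA delivery genes or the 5 eIF2B genes was called.

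Among cap and helicase factors, the scaffold Eif4g1 was higher in D1, with 280, 316 and 340 CPM against 150, 278 and 317. Its log2 difference was 0.24 ± 0.07 (edgeR adjusted p = 0.0146). Eif4e3 (chr6:99625135-99666771), a cap-binding relative of Eif4e, was lower in D1, with 11.5, 14.8 and 21.6 CPM against 15.4, 18.9 and 76.8. Its log2 difference was -0.68 ± 0.18 (edgeR adjusted p = 0.00486). Eif4e itself was not called at 0.07 ± 0.05. Eif4e2, a cap-binding protein linked to repression, was higher in D1 by 0.12 ± 0.04. Eif3c, a core subunit, was the 1 called member of 14 eIF3 genes, at 0.20 ± 0.07 (edgeR adjusted p = 0.0261). Eif5a2 was higher in D1 by 0.21 ± 0.07 (edgeR adjusted p = 0.0213), while its abundant paralog Eif5a had a difference of -0.02 ± 0.04. Eif5b (chr1:37998010-38055579) was lower in D1 by -0.51 ± 0.17 on the log2 scale (edgeR adjusted p = 0.0257). Eif4e2 and Eef1akmt2 are named here after their values were seen.

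**Figure D3:**
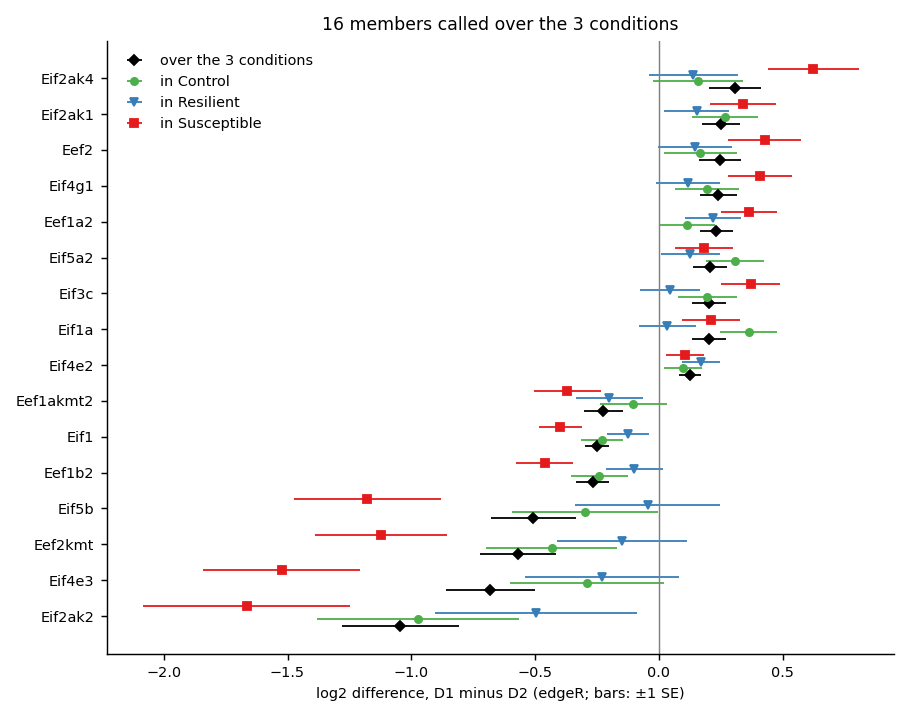
Log2 differences, D1 minus D2, with bars of ±1 SE, for the 16 members called over the 3 conditions, beside the same difference within Control, Resilient and Susceptible. The Susceptible values of Eif5b, Eef2kmt, Eif4e3 and Eif2ak2 lie farthest from 0.

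Without D2 Susceptible replicates 1 and 2, 16 of 64 members were called over the 3 conditions, where 30% of all genes were. Of the original 16, 14 were kept, and Eif5b (-0.23 ± 0.13) and Eef1akmt2 (-0.13 ± 0.07) were lost. Eif2s1 and Eif4g3 were called there in addition. The difference of Eif4e3 shrank to -0.28 ± 0.09 and that of Eef2kmt to -0.35 ± 0.13, while Eif1 stood at -0.18 ± 0.04 and Eif2ak2 at -0.93 ± 0.19. Without all 4 libraries that stood apart, 14 of 64 members were called over the 3 conditions. In that setting 6 were called in Control, 0 in Resilient, 1 in Susceptible and 0 in each stress comparison. The share of all genes called in that setting is not given here, so these counts cannot be read against it.

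The count differed between conditions. In Control 1 of 62 was called, Eif1a at 0.36 ± 0.12 (edgeR adjusted p = 0.047), where 8.30% of all genes were called. Without D2 Susceptible replicates 1 and 2, which then no longer entered the shared spread, 6 members were called in Control, Eif1, Eif1a, Eif2ak1, Eif2ak2, Eif2s1 and Eif5a2, against 15.3% of all genes. In Resilient 0 were called and 1 had an unadjusted p under 0.05, Eif4e2 at 0.17 ± 0.08, where 6.65% of all genes were called. DESeq2 also called 0 there, and limma voom 4 (Eef1a2, Eif1, Eif4e2 and Eif4g3). Without those replicates the count was 1, against 11.3% of all genes. It was the eEF1A methyltransferase Eef1akmt3, which is too low to be tested with all libraries and is named after its values were seen. In Susceptible 20 were called, 8 higher and 12 lower in D1, against 23.9% of all genes. Of the 12 lower in D1, the 6 with the smallest p are given here in order of size. Eif2ak2 (-1.67 ± 0.42), Eif4e3 (-1.52 ± 0.32) and Eif5b (-1.18 ± 0.30) came first. Eef2kmt (-1.12 ± 0.27), Eef1b2 (-0.46 ± 0.11) and Eif1 (-0.40 ± 0.09) followed. Of the 8 higher in D1, the 6 with the smallest p are given likewise. Eif2ak4 (0.62 ± 0.18), Eef2 (0.43 ± 0.15) and Eif4g1 (0.41 ± 0.13) came first. Eif3c (0.37 ± 0.12), Eef1a2 (0.36 ± 0.11) and Eif3d (0.27 ± 0.09) followed. Of these 20, 1, Eif2ak2, was kept without D2 Susceptible replicates 1 and 2, where 10.4% of all genes were called.

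Other genes of the pathway showed what moved beside the members in the same comparison. Of 75 cytosolic ribosomal protein genes, 57 were lower in D1 and 0 higher, with a median log2 difference of -0.27, and 47 were lower without D2 Susceptible replicates 1 and 2. By condition 32 were lower in Control (median -0.35), 54 in Susceptible (median -0.38) and 0 in Resilient (median -0.036, with 1 at an unadjusted p under 0.05). Of all genes, 8.30% were called in either direction in Control, 23.9% in Susceptible and 6.65% in Resilient. Of 20 tested genes of the integrated stress response, the programme that follows eIF2 phosphorylation, 3 were higher and 6 lower, and 6 and 6 without those replicates. Asns, which makes asparagine, was higher by 0.46 ± 0.08, and the serine synthesis gene Phgdh was lower by -1.23 ± 0.23, while the central factor Atf4 stood at 0.03 ± 0.08. Of 17 mTORC1 and eIF4E regulators, 2 were higher (Rptor and Rheb) and 2 lower (Rps6 and Ddit4), and 4 and 2 without those replicates. Termination, recycling and poly(A)-binding genes had 5 of 12 higher and 1 lower, and the same without those replicates. Mitochondrial translation factors had 1 of 10 in each direction, and 1 higher and 0 lower without those replicates. Over all genes tested 13.8% were higher and 15.5% lower with all libraries.

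Markers of other cell types moved with the class. All 6 endothelial and mural markers were lower in D1, with a summed CPM of 18.2 to 49.8 in D1 libraries and 90.9 to 385 in D2. Lower in D1 were also 7 of 7 oligodendrocyte markers (384 to 1002 against 435 to 1894 CPM), 5 of 6 astrocyte markers (245 to 688 against 269 to 611) and 4 of 6 microglia markers (9.37 to 34.9 against 12.8 to 41.5). Interneuron markers were higher in D1 for 5 of 6, at 280 to 464 against 66.9 to 270 CPM. None of these markers was at 0 throughout a group. The astrocyte markers had a median log2 difference of -1.43. The part of all these markers in the class differences of the members, and of other genes such as Phgdh, was not tested.

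Promoter sequence was read because 16 members differed between the classes, and it shows what those members carry at their starts. RefSeq windows on GRCm38.p6, from 250 bases before to 50 after an annotated start, matched 49 of the 65 members by symbol. The letters CCGGAAG on either strand, the core that ETS-family factors bind, occurred in windows of 16 of the 49 members (32.7%) and in 13.4% of 16514 genes. They occurred in 5 of the 14 called members that have a window. The forward TATA-box letters TATAAA occurred in 4 of 49 (8.16%) against 9.46% of genes. GCATGCGC on either strand was present in 5 of 49 (10.2%) against 4.11%, CCAATC on either strand in 9 (18.4%) against 20.5% and TGACGTCA in 1 (Eef2, 2.04%) against 2.63%. These letters were chosen after the windows had been read, and a match is not a binding site. The stretches below show 30 bases around a match in called members, on the gene's strand, with the matched letters in capitals (CCGGAAG, its reverse complement, or TATAAA for Eef2).
Eif5a2, chr3:28781230-28781259, plus strand: cggggcctatcCCGGAAGtgtggtcgcggc
Eif3c, chr7:126566382-126566411, minus strand: aaccttttcctCTTCCGGcgtcgtgcctgt
Eif2ak1, chr5:143817797-143817826, plus strand: ctcttgtgttaCTTCCGGcttggggggagg
Eef1b2, chr1:63176821-63176850, plus strand: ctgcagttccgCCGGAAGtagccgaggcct
Eif4e2, chr1:87213905-87213934, plus strand: tcgccagccaaCCGGAAGtagccgggccct
Eef2, chr10:81176604-81176633, plus strand: ccggcgtcgaccTATAAAaggccgggcgtt
The holders of CCGGAAG include members higher in D1 (Eif5a2, Eif3c, Eif2ak1 and Eif4e2) and lower in D1 (Eef1b2). In Eef2 the TATA letters begin 15 bases before the annotated start.

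The stress comparisons asked whether the factors differ between Control, Resilient and Susceptible mice within a class. In D1 neurons no member was called in any of the 3 comparisons by edgeR, DESeq2 or limma voom, and 0% of all genes were called by edgeR. An unadjusted p under 0.05 was met by 0 of 62 members for Susceptible against Control (2.40% of all genes), by 1 for Resilient against Control (2.60%) and by 0 for Susceptible against Resilient (3.49%). The 1 was Eif4h, an aid to the eIF4A helicase, at 0.19 ± 0.08 on the log2 scale. Members had a median log2 value of -0.053 for Susceptible against Control (-0.011 over all genes) and -0.052 against Resilient (-0.0066). By library against the Resilient mean, member medians were -0.154 and -0.132 in D1 Susceptible replicates 1 and 5. They were -0.012 to 0.0026 in the other D1 Susceptible libraries. The largest evidence toward lower values in D1 Susceptible mice was for Eef1e1 against Control (-0.24 ± 0.13) and for Eif1b against Resilient (-0.25 ± 0.13), neither called.

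Values by library in D1 are given for Eif4e, Eif5a, Eif2ak3 and Eif4ebp1. Eif4e had 130, 135, 146, 152 and 156 CPM in D1 Control, 149, 131, 143, 128 and 144 in D1 Resilient and 120, 152, 145, 141 and 129 in D1 Susceptible libraries. The 3 groups overlapped. Eif5a had 245, 297, 286, 320 and 290 CPM in D1 Susceptible libraries, against 297 ± 8.66 (SD, n = 5) in D1 Control and 301 ± 8.89 in D1 Resilient. Eif2ak3 had 18.4, 19.5, 18.9, 18.9 and 20.7 CPM in D1 Control and 22.8, 22.1, 19.7, 15.5 and 15.3 in D1 Susceptible libraries, which spread to both sides. Eif4ebp1, low throughout, read 0.507, 0.437, 0.268, 0.247 and 1.45 CPM in D1 Susceptible libraries. Its log2 value of 0.58 ± 0.78 against Resilient rested on replicate 5 and was -0.13 without it.

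In D2 neurons no member was called for Resilient against Control by edgeR, DESeq2 or limma voom, with 0% of all genes called by edgeR and 4 of 62 members at an unadjusted p under 0.05 (4.20% of all genes). These were Eif3k (-0.22 ± 0.09), Eif1ad (-0.18 ± 0.08), Eif2a (0.24 ± 0.11) and Eif1a (0.25 ± 0.12). For Susceptible against Control 0 members were called by edgeR (0.00516% of all genes) and 16 had an unadjusted p under 0.05, 8 in each direction (15.7% of all genes). For Susceptible against Resilient 0 were called (0.0516% of all genes) and 24 had an unadjusted p under 0.05, 10 higher and 14 lower (19.1% of all genes). DESeq2 called 1 member in the former, Eif4e3 (1.32% of all genes), and 3 in the latter, Eif4e3, Eif4g3 and Eif5 (5.05%). Limma voom called 0 in both.

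For Susceptible against Control the leading values were Eif4e3 (1.04 ± 0.31), Eif3a (0.70 ± 0.24), Eif3f (-0.22 ± 0.08) and Eif3k (-0.25 ± 0.09). Those against Resilient were Eif4e3, Eif4g3 (0.56 ± 0.16), Eef1a1 (-0.41 ± 0.14) and Eif3d (-0.23 ± 0.09). For Eif4e3 the value came from 2 of the 5 Susceptible libraries. Eif4e3 had 76.8, 70.3, 15.8, 19.9 and 18.9 CPM in D2 Susceptible replicates 1 to 5, against 25.0, 16.2, 18.9, 15.4 and 17.1 in D2 Resilient and 16.1, 18.4, 16.5, 21.9 and 24.9 in D2 Control libraries. Replicates 1 and 2 stood above every other D2 library, and the other 3 lay among them. The log2 value against Resilient was 1.12 ± 0.31 (edgeR adjusted p = 0.077), and without both replicates it was -0.030 ± 0.17. Eif5b had 1351, 1009, 337, 543 and 389 CPM in D2 Susceptible libraries, against 562, 387, 362, 314 and 362 in D2 Resilient. Eif3a, the largest eIF3 subunit, had 727, 592, 242, 318 and 256 CPM, against 329, 269, 255, 188 and 242. Both showed the same split by library. The eIF2 beta subunit Eif2s2 had 596, 426, 142, 224 and 168 CPM in D2 Susceptible libraries, against 215, 180, 164, 158 and 183.

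Other members were low in the same replicates. Eef1a1 had 849, 902, 1857, 1488 and 1787 CPM in D2 Susceptible libraries, against 1759, 1841, 1813, 1705 and 2001 in D2 Resilient. Eef2 had 381, 468, 889, 663 and 786 CPM, against 646, 769, 782, 772 and 853. For both genes replicates 1 and 2 lay below every other library of the series. Eef2k had 8.80, 11.1, 23.6, 21.5 and 22.8 CPM, so the kinase and its substrate were low in the same replicates. The eIF2 alpha subunit Eif2s1 had 27.1, 13.9, 48.6, 41.6 and 50.9 CPM, and D2 Control replicate 4, at 24.1, was as low. Eif4ebp1 and Eef1akmt4 had 0 counts in both replicates, which allows up to 0.0616 and 0.0538 CPM before TMM scaling (3 counts, covering counting error alone).

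Counted over the members, 11 had both replicates as the 2 highest of the 15 D2 libraries and 22 had both as the 2 lowest or tied lowest. These were 17.7% and 35.5% of the tested members, and the same held for 11.97% and 20.9% of all genes tested, so many other genes were extreme there too. The high set held Eif4e3, Eif5b, Eif3a, Eif3j1, Eif2s2, Eif5, Eif4g3, Eif1, Eif1b, Eef1b2 and Eef2kmt. The low set held elongation genes (Eef1a1, Eef1a2, Eef2 and Eef2k), eIF2B subunits (Eif2b1 and Eif2b2), 6 eIF3 subunits (Eif3b, Eif3d, Eif3f, Eif3g, Eif3h and Eif3l), the helicase gene Eif4a1, the exon junction helicase gene Eif4a3, the scaffold Eif4g1 and the eIF4E-binding Eif4ebp2, among others. In replicate 1, 33 of 60 members with a count lay beyond 0.5 on the log2 scale from the D2 Resilient mean, and in replicate 2, 28 of 60. These shares were 55% and 46.7%, beside 57.0% and 53.4% of all tested genes with a count, which were not matched to the members by level. In replicates 3, 4 and 5 the members beyond 0.5 were 2, 4 and 2 of 62. In the D1 Susceptible libraries they were 8, 2, 2, 3 and 7 of 62. All tested genes had shares of 19.5% to 32.7% in those 8 libraries, above the members' 3.23% to 12.9%. Eif4a2, at 1240 and 1113 CPM in replicates 1 and 2, lay within the other D2 libraries. Eif5a had 311 and 254 CPM there, and replicate 2 was the lowest D2 library for it.

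Without replicates 1 and 2, 1 of 64 members had an unadjusted p under 0.05 for D2 Susceptible against Control (5.60% of all genes) and 2 for Susceptible against Resilient (5.45%). The summed oligodendrocyte markers were 1894 and 1463 CPM in these replicates and 821 to 1055 in the other 3, and the endothelial and mural markers 385 and 286 against 254 to 286. The part of these markers, or of the low number of genes with a count, in the members' values was not tested.

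**Figure D4:**
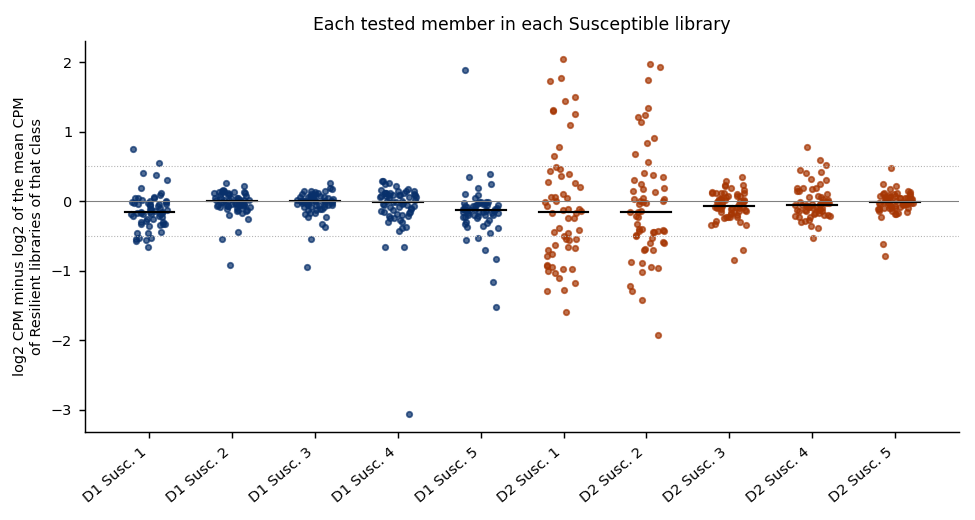
Each tested member in each Susceptible library, as log2 CPM minus the log2 of the mean CPM of the Resilient libraries of its class, leaving out members at 0. Bars are medians and dotted lines mark 0.5 in each direction; the points of D2 Susceptible replicates 1 and 2 spread widest.

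**Figure D5:**
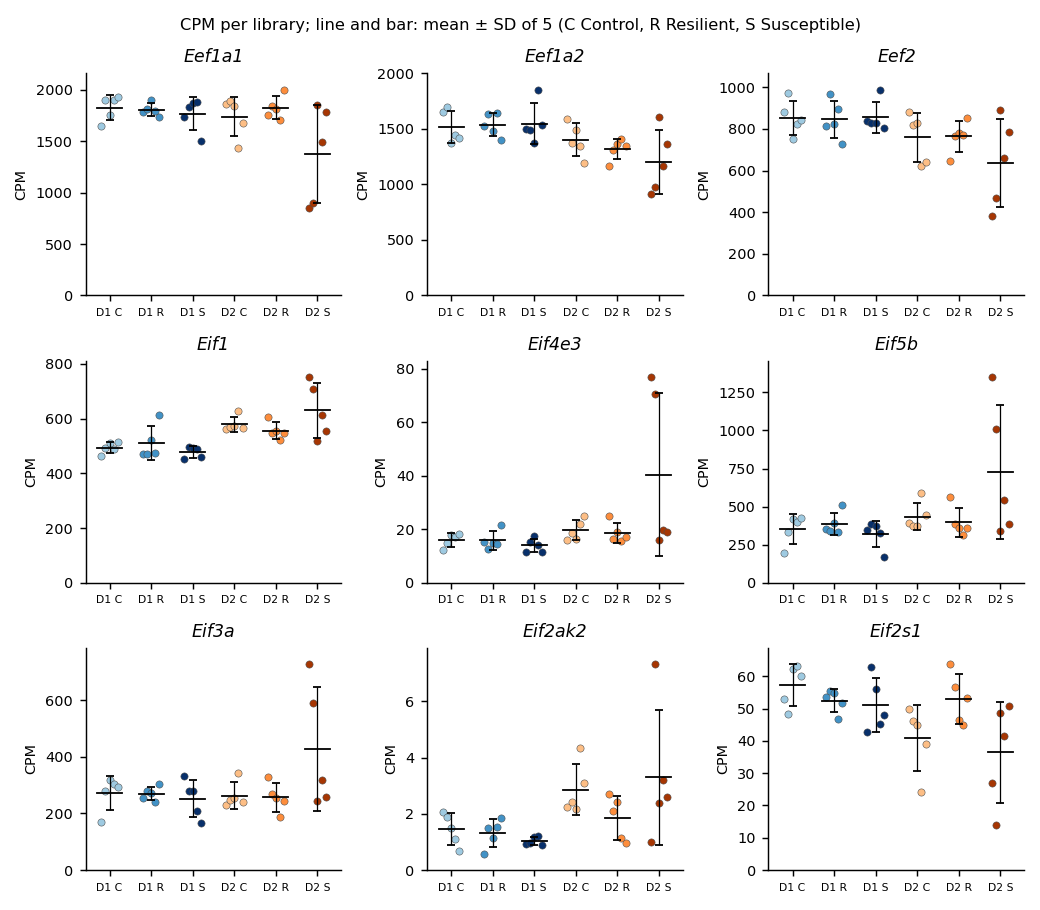
CPM of 9 members in every library, by group, with the mean and SD of 5 libraries. Eif4e3, Eif5b and Eif3a are highest, and Eef1a1 and Eef2 lowest, in D2 Susceptible replicates 1 and 2, and the group means of Eif1 are higher in D2 than in D1 libraries, which overlap.

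The difference between the D1 and D2 stress changes was tested directly. No member was called in any of the 3 tests (0% of all genes in each). An unadjusted p under 0.05 was met by 7 of 62 members for Susceptible against Control (7.79% of all genes), by 2 for Resilient against Control (4.99%) and by 12 for Susceptible against Resilient (12.4%). For Eif4e3 the D1 minus D2 difference in the change from Resilient to Susceptible was -1.29 ± 0.44 (edgeR adjusted p = 0.278). For Eif2s1 that in the change from Control to Resilient was -0.50 ± 0.31 (edgeR adjusted p = 1).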

How the data were processed

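Reads had been aligned with HISAT2 and counted with HTSeq on GRCm38 (mm10), per the submitters' processing notes, which give no versions. The deposited tables hold raw counts of reads per gene for 30 SMART-Seq v4 libraries made from 10 ng of RNA each, per the labels' protocols, and both deposited forms were identical for all 30. The strand setting is not given in the sources used here, so counts of overlapping genes are uncertain: Eif3d shares 43.3% of its exon bases with another gene, Eef2kmt 23.0%, Eif3j1 20.2%, Eif5b 16.8% and Eif4e3 14.8%. Lines for unassigned reads (10.1% to 53.3% of a library) stayed out.

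Groups and replicate numbers came from the titles. Counts were filtered with filterByExpr (minimum count 10, minimum total 15), which left 19368 genes, and 1 model of 6 groups was fitted to TMM-scaled libraries with the robust quasi-likelihood F test of edgeR 4.0.16 (R 4.3.3). P-values of the 13 comparisons were each corrected over the whole table by Benjamini-Hochberg, with a threshold of 0.05. The procedure was also run on simulated counts, which included no libraries that stood apart and so do not cover their effect. Alternatives were DESeq2 1.42.0, its size factors, no filter, the groups compared alone, a replicate block, limma 3.58.1 voom with quality weights, each library left out, and the named libraries left out. Members, lists and tests were chosen with earlier results of these data known. Named were, for each comparison, up to 6 called members in each direction by p, or up to 2 uncalled ones where a direction had none, the most abundant of each role, 16 anchor genes and the untested members. Further members named beside these were chosen after their values were seen. Figures were drawn with matplotlib.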

Additional observations from a re-analysis of the deposited data

Results flagged for a closer look

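Values of all 62 tested members and the members' share were checked in 378 groups of 5 libraries for a library far from the other 4, and 28 were found. A check of this kind marks about 1 group in 20 by chance alone. D2 Control replicate 4 held 6 of the 28, with Eif1 high at 626 CPM (others 562 to 572) and Eif3a high at 344 CPM (230 to 255). Low there were Eif3c at 129 CPM (166 to 181), Eif3h at 68.5 CPM (89.3 to 94.4), Eif4a3 at 60.8 CPM (80.9 to 84.8) and Eif2b2 at 14.4 CPM (26.2 to 30.7). D1 Control replicate 1 was low for Eif3a at 168 CPM (279 to 319), Eif3c at 163 CPM (191 to 202) and Eif3j1 at 33.7 CPM (45.9 to 50.3). Among other D1 Control libraries, Eif5a was high at 312 CPM in replicate 2 (291 to 297), and in replicate 5 Eif4ebp1 was high at 0.704 CPM (0.264 to 0.388) and Eif1ad low at 31.6 CPM (33.9 to 34.4).

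In D1 Resilient replicate 5 Eef1b2 was high at 243 CPM (182 to 196) and Eif4e3 at 21.6 CPM (12.8 to 15.2). For D1 Susceptible, Eef1akmt2 was high at 21.01 CPM in replicate 2 (18.5 to 19.0), and in replicate 4 Eef2 was high at 989 CPM (804 to 841) and Eif2b4 at 52.5 CPM (41.2 to 44.4). In replicate 5 of that group Eif4ebp1 was high at 1.45 CPM (0.247 to 0.507) and Eif2d at 17.2 CPM (13.9 to 14.6), and Eif5b was low at 172 CPM (326 to 388).

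In D2 Control replicate 5 Eif2ak4 was high at 13.9 CPM (10.5 to 11.3) and Eif5a low at 269 CPM (317 to 335). For D2 Resilient, Eif4g3 was high at 278 CPM (217 to 234) and Eif3k low at 88.4 CPM (107.5 to 109.5) in replicate 1, and Eif2b3 was low at 15.7 CPM in replicate 3 (19.2 to 19.9). Eif2b5 was high at 96.05 CPM (66.6 to 74.5) and Eif3j2 at 28.6 CPM (others at most 13.2) in D2 Susceptible replicate 1, and Eif3i at 90.4 CPM in replicate 2 (82.4 to 84.1).

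Of the tested members, Eif2s1 was the 1 whose Resilient libraries all lay below the Control mean in D1 and all above it in D2. D2 Control replicate 4, at 24.1 CPM against 39.1 to 49.9 in the other D2 Control libraries, lowered that D2 mean. Those other libraries had 49.9, 46.1, 45.0 and 39.1 CPM. The lowest D2 Resilient library, at 44.8 CPM, lay just below their mean. The arrangement therefore did not hold without D2 Control replicate 4. No member had the opposite arrangement, and none had either for Susceptible libraries. The D1 minus D2 difference was -0.50 on the log2 scale, and the test of this difference did not pass (edgeR adjusted p = 1).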

How the results depend on the processing

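The count of members called over the 3 conditions was 14 to 27 with 1 library left out, 26 or more when it was D2 Susceptible replicate 3 or 5. Of the 16 members, 11 were called in all 37 alternatives. In Control the count was 0 without the low-count filter, 3 with only the groups compared, 15 by voom and 6 without D2 Susceptible replicates 1 and 2 or without all 4 libraries that stood apart, and 0 to 2 with 1 library left out. In Resilient it was 4 by voom and 1 without D2 Susceptible replicates 1 and 2. In Susceptible it was 0 with only the groups compared, 2 by voom, 1 without D2 Susceptible replicates 1 and 2 or all 4 libraries, and 8 to 30 with 1 left out. For D2 Susceptible against Control it was 1 by DESeq2 and 0 to 6 with 1 library left out, and against Resilient 3 by DESeq2 and 0 to 12, the high counts without replicate 3 or 5. Calls over all genes also moved with the setting. Without D2 Susceptible replicates 1 and 2 the share went from 8.30% to 15.3% in Control and from 6.65% to 11.3% in Resilient. In Susceptible it went from 23.9% to 10.4%. For most other alternatives the share of all genes is not given, so these counts do not describe the members alone. The cause was not tested.

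For single members, 71 values lost and 25 gained a call and 6 changed sign. Eif4e3 for D2 Susceptible was -0.11 against Control and -0.030 against Resilient without replicates 1 and 2, and -0.11 and -0.062 without all 4 libraries. Eif4ebp1 for D1 Susceptible against Resilient ran from -0.13 (without D1 Susceptible replicate 5) to 0.78 with 1 library left out and was -0.044 by voom.

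With the replicate number as a block the counts were 15 over the 3 conditions, 1 in Control, 18 in Susceptible and 0 elsewhere. Of 75 pairs of libraries sharing a number, 0 had deviations correlated above 0.1 (median -0.00359), so the numbers were not taken to pair the libraries. Members near 1 CPM, such as Eif4ebp1 and Eif2ak2, are limited by counts.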
